A study of Homo sapiens with 6 samples.

Results

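The 10 genes described here, ND1, ND2, ND4, ND5, ND6, CYTB, COX1, COX2, COX3 and ATP6, encode respiratory chain proteins and lie on the mitochondrial genome (mtDNA). The rule lists them by symbol, and they are 10 of the 38100 genes in the deposited tables. Their RNA was measured in HK2 cells, an established human proximal tubular epithelial line, in 2 groups of 3 samples that make up the whole series. AdCtrl cells had received an adenovirus with an empty vector and AdSIRT4 cells an adenovirus that carries SIRT4, a member of the sirtuin family found in mitochondria. Both groups are labelled WT and were stimulated with TGF-β1, a cytokine that drives fibrosis, so the comparison shows SIRT4 overexpression on a background of TGF-β1 and virus that all samples share, and no unstimulated or uninfected cells were compared. The study gives n as technical replicates for its work in vitro, so the SDs and p-values below may describe technical spread alone.

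Values for single samples are listed in the order of replicates 1, 2 and 3. SIRT4 itself had 31, 47 and 57 counts in AdCtrl and 1996, 7995 and 6827 counts in AdSIRT4, so every library matched its label. Total counts ran from 41537353 in AdSIRT4 replicate 1 to 85684748 in AdSIRT4 replicate 2. The epithelial genes KRT8, KRT18 and PAX8 and the proximal tubule gene GGT1 were each above 100 CPM in every sample. CPM are counts scaled to a common library size. Of 19 epithelial and tubule markers, 11 were above 1 CPM in every sample and 8 stayed below 1 CPM throughout. Among the low ones were the epithelial gene CDH1 (E-cadherin), at 0.504 to 0.869 CPM, and differentiated proximal tubule genes. The latter included ANPEP, AQP1, LRP2, CUBN and SLC34A1. The summed level of the 19 markers was 2169.8 to 2234 CPM in AdCtrl and 2080.4 to 2636 CPM in AdSIRT4. Of 14 markers of other cell types, 12 were below 1 CPM in every sample, and CD68 was the highest at 31.6 to 46.5 CPM.

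Human mtDNA encodes 13 proteins, all of them subunits of the respiratory complexes. Each strand is transcribed as a long precursor, and the transfer RNAs between the genes mark where it is cut, after which most messages receive a short poly(A) tail. Because the genes of a strand start from shared precursors, differences between their steady levels are thought to arise largely after transcription. The proteins of this set form the core of 4 complexes: 5 belong to complex I, 1 to complex III, 3 to complex IV and 1 to complex V, where they work with many subunits made from nuclear genes. Proximal tubule cells are rich in mitochondria and rely on oxidative metabolism.

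In the GENCODE v29 annotation of GRCh38, 9 of the 10 genes lie on the plus strand of chromosome M and ND6 lies alone on the minus strand. None has an intron. The complex I genes run over chrM:3307-4262 (ND1), chrM:4470-5511 (ND2), chrM:10760-12137 (ND4), chrM:12337-14148 (ND5) and chrM:14149-14673 (ND6). CYTB occupies chrM:14747-15887, COX1 chrM:5904-7445, COX2 chrM:7586-8269, COX3 chrM:9207-9990 and ATP6 chrM:8527-9207. Base composition set ND6 apart, since 35.6% of its sense strand is G and 7.05% is C, while ND2 has 9.50% G and 33.5% C. The poly(A) tail is part of the coding sequence in 5 of the 10 genes, whose last codon is incomplete in the DNA. The 3′ ends of 5 members, printed 5′ to 3′ in the sense direction from the same annotation, show the kinds of ending, with the last letters of the reading frame in capitals.
ND1 (chrM:4233-4262): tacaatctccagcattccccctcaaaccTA
ND4 (chrM:12108-12137): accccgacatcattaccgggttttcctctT
COX1 (chrM:7416-7445): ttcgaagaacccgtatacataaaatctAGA
ND5 (chrM:14119-14148): ctcatcctaaccctactcctaatcacaTAA
ND6 (chrM:14149-14178, minus strand): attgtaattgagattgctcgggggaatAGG
ND1 ends on TA and ND4 on a single T, and added A residues turn both into a stop codon. ND5 carries a complete TAA, and COX1 and ND6 end on AGA and AGG. Human ND6 mRNA is known to lack a poly(A) tail, and the RNA of these libraries was captured on poly-T beads; the part of this in its values was not tested.

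Some neighbours share bases, which matters for how reads are divided between them. ND4L and ND4 are read from 1 bicistronic message, and the end of ND4L overlaps the start of ND4 by 7 bases, shown in capitals.
ND4L (chrM:10737-10766): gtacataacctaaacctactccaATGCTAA
ND4 (chrM:10760-10789): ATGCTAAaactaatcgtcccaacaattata
ATP8 and ATP6 overlap by 46 bases and ATP6 and COX3 by 1 base. ND5 and ND6 meet end to end on opposite strands with no shared base. Strand was not stated for the counting, so RNA from the opposite strand of a gene cannot be told apart from its own message here, and reads that also match nuclear copies of mtDNA are uncertain. The gene lengths implied by the 2 deposited tables were 1.141 to 1.146 times the annotated lengths for all 13 mtDNA genes, a near constant factor, so the rows match the annotated genes.

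In these genes 2 libraries stood apart. AdCtrl replicate 2 had a higher CPM than the other AdCtrl replicates in 10 of 10 members and in 13 of 13 mtDNA genes. Its CPM was 10.1-fold the mean of AdCtrl replicates 1 and 3 for ND6, 2.31-fold for ATP6, 2.24-fold for ND1 and 2.21-fold for ND5. It was 1.79-fold for ND4, 1.69-fold for COX3, 1.60-fold for CYTB, 1.55-fold for ND2, 1.20-fold for COX2 and 1.11-fold for COX1. By the difference in log2 CPM, ND6 had the rank 3 among the 17720 genes tested, and 4 of the 10 members exceeded 2-fold against 1.41% of all genes. The ratio tended to be higher where the level was lower (Spearman correlation -0.67 across the 10 members, which share these libraries). Per length, in FPKM (scaled by gene length and library size, the unit in which the second table was read), the surplus of AdCtrl replicate 2 ran from 423 for COX1 to 2483 for COX3, a 5.87-fold range, while the mean levels in replicates 1 and 3 ran from 78.7 for ND6 to 7105 for COX1, a 90.3-fold range. The summed epithelial markers of AdCtrl replicate 2 were 2229.5 CPM and those of other cell types 38.0 CPM, both within the range of its group. A difference in the number of mitochondria per cell and one in RNA per mitochondrion cannot be told apart in bulk RNA. The part of RNA quality or library preparation in this surplus was not tested.

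AdSIRT4 replicate 1 stood apart by gene length. Over all genes, the Spearman correlation of its deviation from the group mean with gene length was -0.585, against 0.498 and 0.514 in AdSIRT4 replicates 2 and 3 and -0.177, -0.0221 and 0.171 in the AdCtrl libraries. The members ran the same way. ND6 (525 bases) was 1.68-fold, COX2 (684 bases) 1.58-fold and COX3 (784 bases) 1.45-fold the mean of the other AdSIRT4 replicates, while COX1 (1542 bases) was 0.923-fold and ND5 (1812 bases) 0.574-fold. The Spearman correlation across the 10 members was -0.93 in this library, 0.52 in AdSIRT4 replicate 2 and 0.96 in AdSIRT4 replicate 3, as a description over genes that share a library. The other mtDNA genes are shorter than every member and were not all high in AdSIRT4 replicate 1. There ND3 (346 bases) was 1.77-fold the mean of the other AdSIRT4 replicates. ND4L (297 bases) was 0.399-fold and ATP8 (207 bases) 0.778-fold, against the length order seen in the members. Deviations from the mean of 3 samples sum to 0, so the members' values alone do not show which AdSIRT4 library stands apart. The same library had the highest summed epithelial markers, 2636 CPM, and the part of RNA quality or library preparation in its profile was not tested. Results are therefore given with all 6 samples and without these libraries, a choice made after the values were seen. AdCtrl replicate 2 was chosen for its high values in these same genes, so leaving it out raises the members' fold changes by construction. Intervals and p-values of fits without it are descriptions.

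**Figure D1:**
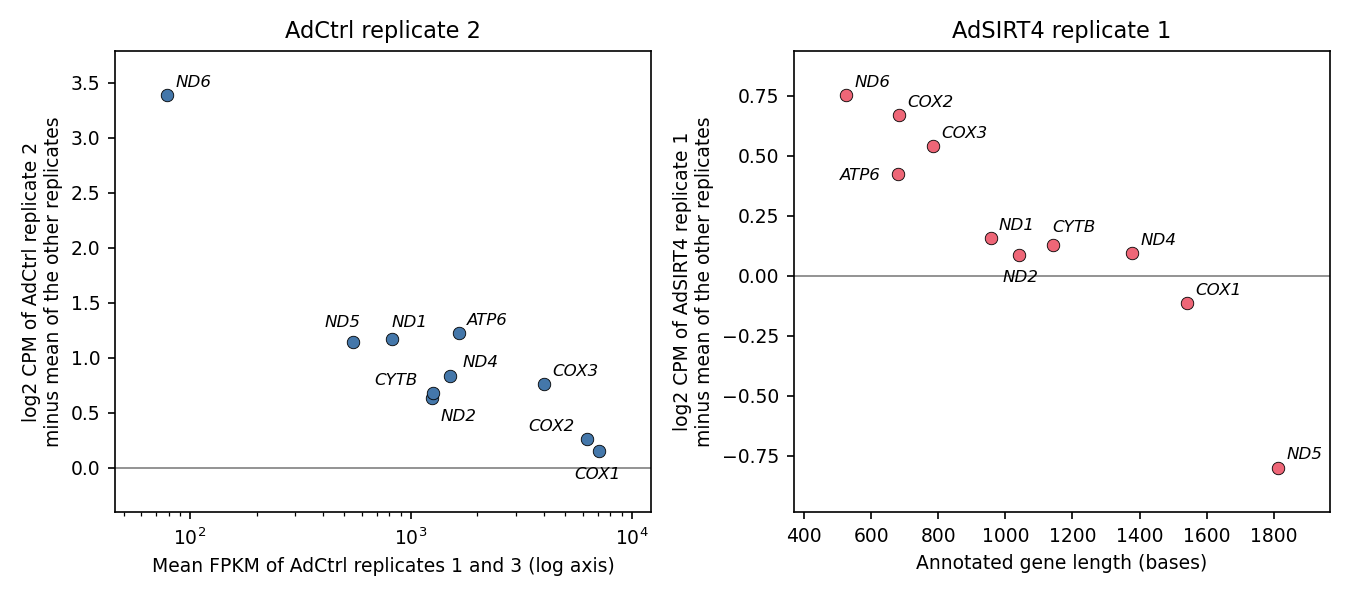
Left, the log2 CPM of AdCtrl replicate 2 minus the mean log2 CPM of AdCtrl replicates 1 and 3 for each of the 10 genes (points), against their mean FPKM in those replicates on a log axis. Right, the same difference for AdSIRT4 replicate 1 against AdSIRT4 replicates 2 and 3, by annotated gene length in bases. All 10 genes lie above 0 on the left, with ND6 at 3.39, and on the right the values run from 0.75 for ND6 to -0.80 for ND5.

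The mtDNA genes were among the most abundant messages of these cells. The 10 members took 3.06%, 4.24% and 2.88% of all counts in AdCtrl and 3.33%, 3.34% and 2.95% in AdSIRT4. AdCtrl replicate 2 was the highest and AdCtrl replicate 3 the lowest, with the whole AdSIRT4 group between them. The group means were 3.39% ± 0.741 (SD, n = 3) and 3.21% ± 0.219 (SD, n = 3), a difference below the spread between AdCtrl samples. The exact binomial 95% intervals of the shares reached at most 0.00609 percentage points to either side, which covers counting error alone. Leaving out AdCtrl replicate 2 lowered the AdCtrl mean to 2.97%, and the mean of AdSIRT4 replicates 2 and 3 was 3.15%. COX1 alone supplied 41.2%, 32.3% and 42.6% of the members' counts in AdCtrl and 30.04%, 35.5% and 38.9% in AdSIRT4, so its share was low in both libraries that stood apart.

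**Figure D2:**
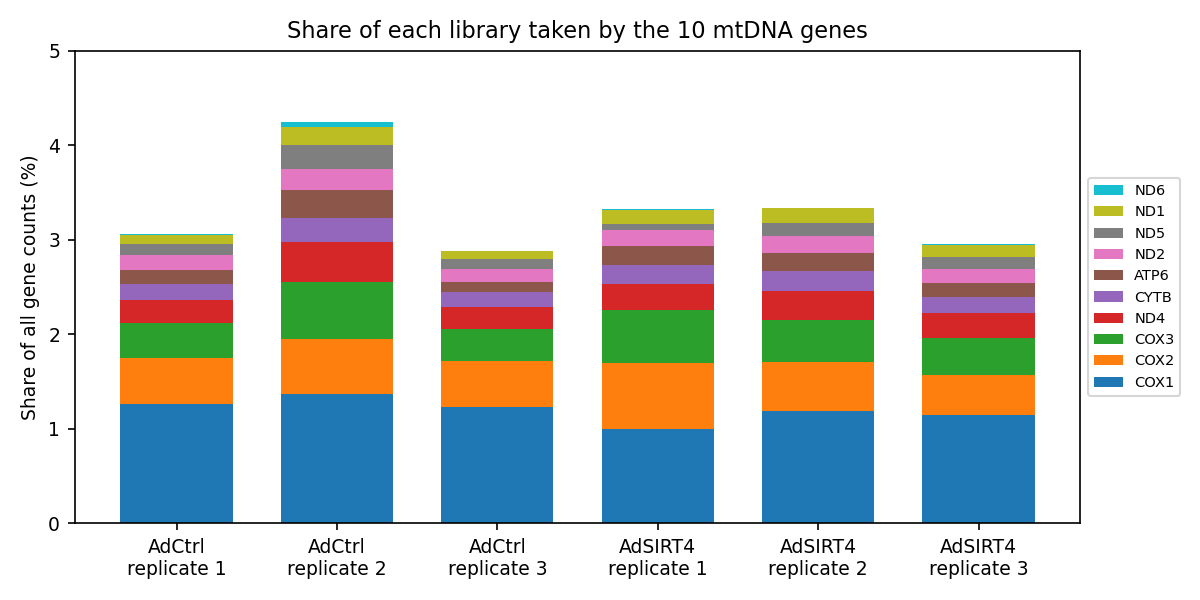
Share of all gene counts (%) held by the 10 genes in each of the 6 samples, stacked by gene from COX1 at the bottom to ND6 at the top. AdCtrl replicate 2 reaches 4.24%, and the other 5 samples lie between 2.88% and 3.34%.

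Compared per length, complex IV messages were the highest. Over all 6 samples the mean level was 6768 FPKM for COX2, 6765 FPKM for COX1 and 5041 FPKM for COX3, the genes of the catalytic core of cytochrome c oxidase. COX2 was the second most abundant of all genes in every library, COX1 ranked between 1 and 4, and COX3 between 3 and 4. ATP6 followed with 2297 FPKM, then ND4 with 1816, CYTB with 1481, ND2 with 1416, ND1 with 1207, ND5 with 649 and ND6 with 232 FPKM. COX3 lay above ATP6 in every sample of both groups, with 2.19 times the mean, and this was the one neighbouring pair in the order whose ranges did not overlap in either group. In ND4 and CYTB, ND1 and ND5, and ND5 and ND6 the ranges were separate in AdSIRT4 and overlapped in AdCtrl, and COX1 and COX3 were separate in AdCtrl alone. COX2 and COX1, ATP6 and ND4, CYTB and ND2, and ND2 and ND1 could not be placed in order beyond their spread. Within the same library, however, ND2 exceeded ND1 and ND4 exceeded CYTB in 6 of 6 samples. COX2 exceeded COX1 in 1 of 6, AdSIRT4 replicate 1, so its slightly higher mean came from that library. ND6 was the most variable, from 59.5 FPKM in AdCtrl replicate 3 to 763 FPKM in AdCtrl replicate 2, and its rank among all genes moved from 972 to 51.

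No member passed the test between the groups. Of 10 members tested, 4 had higher and 6 had lower values in AdSIRT4 cells, 0 had an adjusted p under 0.05 in edgeR's quasi-likelihood test with Benjamini-Hochberg adjustment and 0 had an unadjusted p under 0.05. DESeq2 and a fit of edgeR blocked on the replicate number also called 0 of 10 at either threshold. Over all 17720 genes tested, 0.0113% were called by adjusted p in edgeR and 7.93% had an unadjusted p under 0.05. DESeq2 called 1.16% by adjusted and 9.24% by unadjusted p, and the blocked fit 0.00564% and 7.2%. The median log2 fold change of the members was -0.014, beside 0.021 over all genes. With AdCtrl replicate 2 left out, 9 of 10 members were higher in AdSIRT4 and the median was 0.29, and with AdSIRT4 replicate 1 left out, 9 of 10 were lower and the median was -0.11. Without both libraries, 8 were higher with a median of 0.25, and 5 (ND1, ND4, ND5, CYTB and COX3) had an unadjusted p under 0.05 in edgeR, beside 22.4% of all genes. AdCtrl replicate 2 was left out for its high values in the members, so the counts without it are descriptions. Leaving out AdCtrl replicate 2 reversed the sign of ND2, ND4, ND5, ND6 and ATP6, and leaving out AdSIRT4 replicate 1 reversed that of COX2, COX3 and CYTB. The other libraries moved the members too. Without AdCtrl replicate 3, 9 of 10 were lower with a median of -0.20, and ND1, CYTB and COX3 reversed. Without AdCtrl replicate 1, 7 were lower with a median of -0.11, and CYTB reversed. Without AdSIRT4 replicate 3, 7 were higher with a median of 0.085, and ND2, ND4 and ATP6 reversed.

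**Figure D3:**
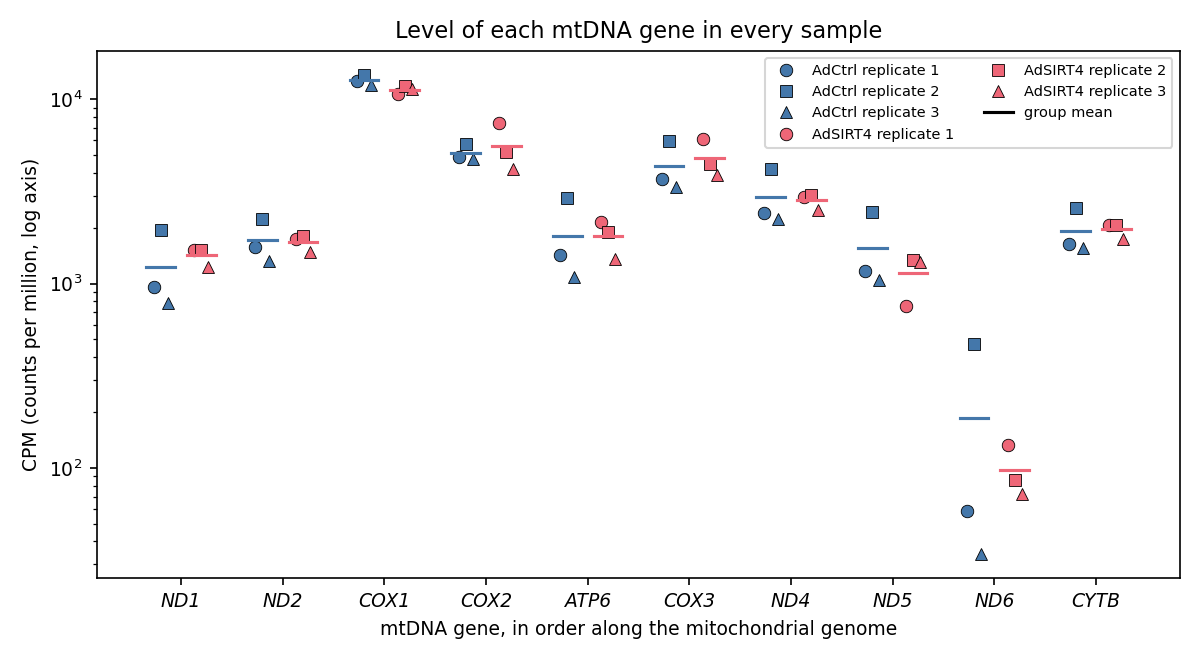
CPM on a log axis for the 10 genes, ordered along the mitochondrial genome, in AdCtrl (blue) and AdSIRT4 (red) replicates 1 (circles), 2 (squares) and 3 (triangles), with the group means as lines. The groups overlap in 9 of the 10 genes, the exception being COX1, and AdCtrl replicate 2 is the highest AdCtrl point in each gene.

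The 5 complex I genes encode subunits of the membrane arm of NADH:ubiquinone oxidoreductase, where electrons from NADH enter the chain. ND1, which sits at the quinone site, had 964, 1961 and 788 CPM in AdCtrl and 1529, 1529.9 and 1228 CPM in AdSIRT4. All AdSIRT4 samples lay above AdCtrl replicates 1 and 3 and below AdCtrl replicate 2. Its log2 fold change was 0.21 (95% interval -0.59 to 1.01). Leaving out AdCtrl replicate 2 gave 0.71 (0.23 to 1.18), where edgeR's test gave 0.0109 as unadjusted p and 0.930 as adjusted p. In this fit 4.6% of all genes had an unadjusted p under 0.05 and 0% passed after adjustment. Leaving out AdSIRT4 replicate 1 as well gave 0.65 (0.35 to 0.95) and an adjusted p of 0.048 from edgeR, the one call among the members in the fits run, in a comparison of 2 samples with 2 in which 3.06% of all genes were called. AdCtrl replicate 2 was left out for its high values in the members, ND1 among them. The intervals and p-values of both fits are therefore descriptions and do not test ND1.

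ND2, ND4 and ND5 encode the proton-pumping subunits of the membrane arm. ND2 had 1572, 2243 and 1330.4 CPM in AdCtrl and 1744, 1819 and 1485 CPM in AdSIRT4. ND4 had 2409, 4157 and 2243 CPM in AdCtrl and 2948, 3024 and 2519.9 CPM in AdSIRT4. In both genes the AdSIRT4 samples fell into a narrow band inside the AdCtrl range. The log2 fold change was -0.03 (95% interval -0.53 to 0.48) for ND2 and -0.05 (-0.66 to 0.55) for ND4, and both turned positive without AdCtrl replicate 2, at 0.21 and 0.28.

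ND5, the longest member, had 1177, 2460 and 1049 CPM in AdCtrl and 759.7, 1336 and 1311 CPM in AdSIRT4. AdCtrl replicate 2 was high and AdSIRT4 replicate 1 low, and the other 4 samples lay between 1049 and 1336 CPM. The log2 fold change was -0.46 (95% interval -1.35 to 0.43) with all samples and 0.24 (0.08 to 0.41) without both libraries, where the unadjusted p was 0.00932 and the adjusted p 0.102 in edgeR's test. The fit without both leaves out the control in which ND5 was high, so its interval and p-values are descriptions. The adjusted p of the 5 complex I genes lay between 0.761 for ND5 and 0.967 for ND2 in edgeR's fit of all 6 samples.

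ND6, the complex I gene of the light strand, had 58.5, 468 and 34.2 CPM in AdCtrl. In AdSIRT4 replicates 1, 2 and 3 it had 133, 86.0 and 72.5 CPM. Every AdSIRT4 sample lay above AdCtrl replicates 1 and 3, and AdCtrl replicate 2 lay above all. The fitted log2 fold change was -0.94 (95% interval -3.11 to 1.22), whereas the difference of the mean log2 CPM was -0.06, so the value depends on the kind of average. Without AdCtrl replicate 2 the fitted value was 1.07 (0.20 to 1.93), where the unadjusted p was 0.0240 and the adjusted p 0.930 in edgeR. That library was left out for its high values in the members, so this interval and these p-values are descriptions.

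Relative to the other 9 members, ND6 had 1.93, 11.3 and 1.22 counts per 1000 in AdCtrl and 3.76, 2.60 and 2.50 in AdSIRT4. The AdCtrl values enclosed those of AdSIRT4, and ND6 was high in AdCtrl replicate 2 also when measured against its mtDNA neighbours. The means were 4.80 ± 5.60 (SD, n = 3) and 2.95 ± 0.704 (SD, n = 3). Per length, COX1 exceeded ND6 by 72.7-fold, 9.87-fold and 119-fold in AdCtrl and by 27.2-fold, 46.5-fold and 53.0-fold in AdSIRT4.

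CYTB encodes cytochrome b, the mtDNA-encoded subunit of complex III that passes electrons from ubiquinol. It had 1639, 2562 and 1561 CPM in AdCtrl and 2086, 2075 and 1756 CPM in AdSIRT4. The AdSIRT4 samples again lay between AdCtrl replicate 2 and the other AdCtrl replicates. The means were 1921 ± 557 and 1972 ± 188 CPM (SD, n = 3 each), and the log2 fold change was 0.04 (95% interval -0.48 to 0.55). In edgeR's test the adjusted p was 0.956.

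In complex IV, COX1, which holds the site where oxygen is reduced, was the one member whose groups did not overlap. It had 12508, 13576 and 12002 CPM in AdCtrl and 10649, 11766 and 11298 CPM in AdSIRT4. The means were 12695 ± 803 and 11238 ± 561 CPM (SD, n = 3 each). Over all genes tested, 9.77% had groups that did not overlap with the lower values in AdSIRT4, so 1 member of 10 is near the background. The log2 fold change was -0.18 (95% interval -0.53 to 0.18), with p = 0.766 after adjustment in edgeR's test and p = 0.1 in a two-sided exact permutation test, the smallest that 3 samples against 3 allow. COX1 was the member with the same sign in all 20 alternative fits, from -0.26 to -0.092, and its adjusted p was 0.183 or higher in each. The unadjusted p in edgeR was 0.0398 without AdSIRT4 replicate 1, where 24.3% of all genes had one under 0.05. Limma on log2(FPKM + 1) with all samples had 1 member lower with an unadjusted p under 0.05, blocked on the replicate number or not. The share over all genes was not taken there, so this count cannot be weighed. In limma the adjusted p of COX1 was 0.615 without and 0.564 with the block. By adjusted p these fits called 0.0142% and 0% of all genes.

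COX2, which takes electrons from cytochrome c, had 4876, 5748 and 4714 CPM in AdCtrl and 7385, 5171 and 4175 CPM in AdSIRT4. COX3, the third core subunit, had 3700.1, 5958 and 3349.7 CPM in AdCtrl and 6054, 4478 and 3873 CPM in AdSIRT4. In both genes AdSIRT4 replicate 1 was the highest of all 6 samples. The log2 fold changes were 0.13 for COX2 (95% interval -0.43 to 0.68) and 0.15 for COX3 (-0.51 to 0.80), and without AdSIRT4 replicate 1 they were -0.13 (-0.40 to 0.14) and -0.06 (-1.06 to 0.94). The ratio of COX1 to COX2 in FPKM was 1.14, 1.05 and 1.13 in AdCtrl and 0.639, 1.01 and 1.20 in AdSIRT4, so AdSIRT4 replicate 1 was the lowest.

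ATP6 encodes the subunit of ATP synthase that forms the path of protons through the membrane. It had 1437, 2912 and 1080.4 CPM in AdCtrl and 2159.5, 1906 and 1360.05 CPM in AdSIRT4. The means were 1809.8 ± 971 and 1808 ± 409 CPM (SD, n = 3 each), and the log2 fold change was -0.0011 (95% interval -0.89 to 0.89). Changes of close to 2-fold in either direction lie inside this interval. Without AdCtrl replicate 2 the value was 0.52 (-0.12 to 1.17).

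**Figure D4:**
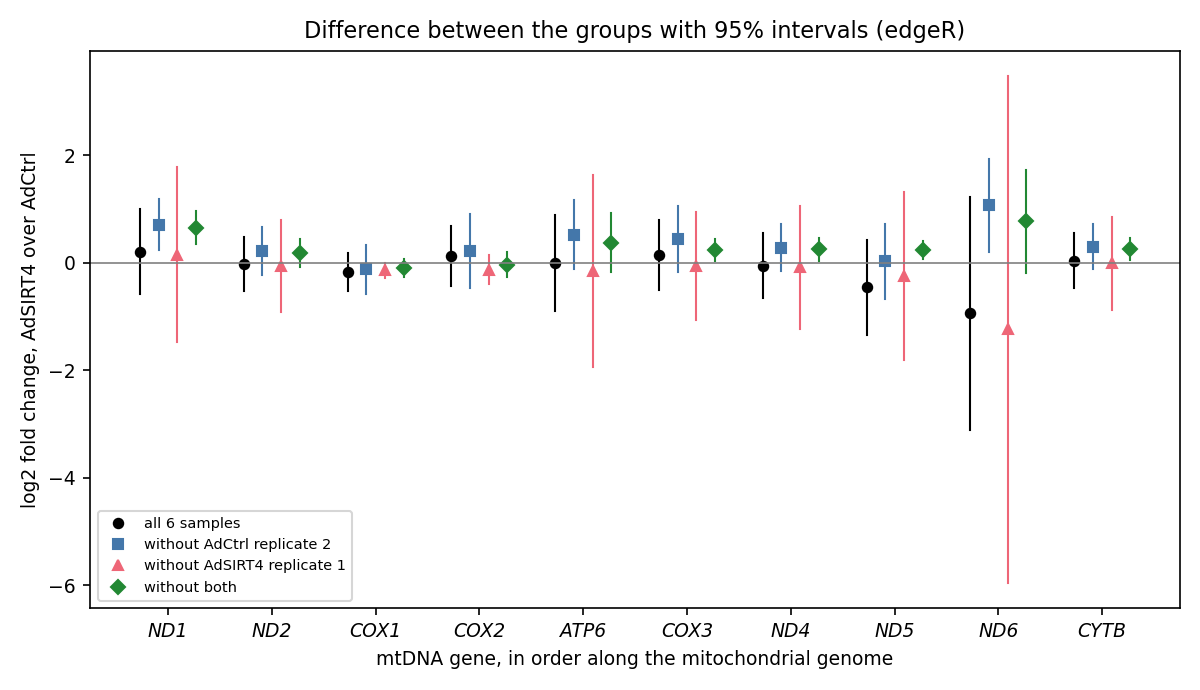
Log2 fold change of AdSIRT4 over AdCtrl for each of the 10 genes with 95% intervals (lines) from edgeR, with all 6 samples (black), without AdCtrl replicate 2 (blue), without AdSIRT4 replicate 1 (red) and without both (green). All intervals from 6 samples include 0, ND6 moves from -0.94 to 1.07 when AdCtrl replicate 2 is left out, and COX1 lies below 0 in the 4 fits.

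The ratios between members describe the mtDNA transcript pool without reference to nuclear genes. ND1 and ND2, neighbours on the heavy strand precursor, had an FPKM ratio of 0.669, 0.953 and 0.645 in AdCtrl and of 0.955, 0.917 and 0.901 in AdSIRT4. AdCtrl replicate 2 lay within the AdSIRT4 range in this ratio, so the groups overlapped. The other AdCtrl replicates lay below every AdSIRT4 sample. AdCtrl replicate 2 was set apart for its high values in the members, so this difference is a description and was not tested. CYTB over ND5 was 2.21, 1.65 and 2.36 in AdCtrl and 4.36, 2.47 and 2.13 in AdSIRT4, where AdSIRT4 replicate 1 was alone at the high end. ND5 over ND4 was 0.372, 0.450 and 0.356 in AdCtrl and 0.196, 0.336 and 0.396 in AdSIRT4.

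In each of the 3 other protein-coding mtDNA genes AdCtrl replicate 2 or AdSIRT4 replicate 1 was the highest of the 6 samples. ND3, a short complex I gene, had 642, 1358 and 458 CPM in AdCtrl and 1411, 892 and 702 CPM in AdSIRT4, a log2 fold change of 0.29 (95% interval -0.74 to 1.32). ND4L had 622, 921 and 547 CPM in AdCtrl and 275, 692 and 689 CPM in AdSIRT4, and in AdSIRT4 replicate 1 it was 0.399-fold the mean of the other AdSIRT4 replicates, against 1.06-fold for ND4 on the same message. The FPKM ratio of ND4 to ND4L was 2.30 in that library and 0.787 to 0.970 in the other 5. ATP8 had 89.2, 381 and 25.8 CPM in AdCtrl and 72.2, 108 and 77.1 CPM in AdSIRT4, and in AdCtrl replicate 2 it was 6.63-fold the mean of the other AdCtrl replicates, at rank 4 of all genes directly after ND6. The values of ND4L and ATP8 are uncertain since both genes overlap a neighbour. In edgeR's test the adjusted p was 0.843 for ND3, 0.799 for ND4L and 0.769 for ATP8.

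The nuclear genes that copy, transcribe and process mtDNA and its RNA were examined beside the members. None of the 17 genes of mtDNA copying was called by adjusted p, beside 0.0113% of all genes. Unadjusted, 2 had a p under 0.05 beside 7.93% of all genes, and the median log2 fold change was 0.0083. These were TK2, a thymidine kinase that supplies the mitochondrial nucleotide pool, and POLG2, the accessory subunit of the mtDNA polymerase. TK2 had 40.1, 42.9 and 44.3 CPM in AdCtrl and 48.7, 56.8 and 65.1 CPM in AdSIRT4, and its log2 fold change was 0.42, where edgeR's adjusted p was 0.533 with all samples and 0.00286 without AdSIRT4 replicate 1, where 6.71% of all genes were called. POLG2 had 10.4, 10.4 and 11.3 CPM in AdCtrl and 12.4, 12.9 and 13.9 CPM in AdSIRT4, with adjusted p of 0.586 and 0.0452 in the same fits of edgeR. The groups of both genes did not overlap, and in the list 2 of 17 genes were higher and 1 lower in this way, beside 9.66% higher and 9.77% lower of all genes. SSBP1, TWNK and DGUOK, the next genes of the list by p, had log2 fold changes of 0.28, 0.11 and 0.27 and overlapping groups. AdSIRT4 replicate 1 was alone at the high end in SSBP1 and DGUOK. In AdSIRT4, SSBP1 had 85.6, 51.6 and 48.8 CPM and DGUOK 62.1, 36.2 and 32.7 CPM.

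Of 18 genes of mtDNA transcription, 0 were called beside 0.0113% of all genes. Unadjusted, 2 had a p under 0.05 beside 7.93% of all genes, and the median log2 fold change was 0.06. TFB2M, which opens the promoter for the mitochondrial RNA polymerase, had 35.7, 33.6 and 38.5 CPM in AdCtrl and 51.1, 41.9 and 40.8 CPM in AdSIRT4. MTERF4, MTERF1, TEFM and GABPB1 had log2 fold changes of 0.23, 0.28, 0.26 and 0.21, and AdSIRT4 replicate 1 was the highest sample in each. Among 34 genes of mitochondrial RNA processing and decay, 0 were called beside 0.0113% of all genes. Of the 34, 25 had higher and 9 had lower values in AdSIRT4, and the median was 0.11. Unadjusted, 3 of the 34 had a p under 0.05 in edgeR, beside 7.93% of all genes. In 10 of the 34 the groups did not overlap and AdSIRT4 was the higher, beside 9.66% of all genes. In 1 AdSIRT4 was the lower in this way, beside 9.77%. NSUN2, an RNA methyltransferase, had 55.5, 57.6 and 57.1 CPM in AdCtrl and 70.3, 67.4 and 68.2 CPM in AdSIRT4, a log2 fold change of 0.28. Its adjusted p was 0.527 in edgeR and 0.0334 in DESeq2, which called 1.16% of all genes. FASTKD5, which takes part in the maturation of messages that no transfer RNA flanks, TRMT10C, a subunit of mitochondrial ribonuclease P, FASTKD2 and MRM2 had log2 fold changes of 0.25, 0.47, 0.18 and 0.23. In each of them AdSIRT4 replicate 1 was the highest sample. TRMT10C had 54.0, 35.1 and 32.6 CPM in AdSIRT4. The list median fell to 0.0013 without AdSIRT4 replicate 1, with 18 genes higher and 16 lower.

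Among 18 mitochondrial translation factors 0 were called, beside 0.0113% of all genes. Of the 18, 12 had higher and 6 had lower values in AdSIRT4, and the median log2 fold change was 0.09. Without AdSIRT4 replicate 1 this lean reversed, with 7 higher and 11 lower and a median of -0.028. OXA1L, which inserts newly made mtDNA-encoded proteins into the inner membrane, had 54.0, 54.0 and 52.9 CPM in AdCtrl and 50.7, 48.1 and 44.9 CPM in AdSIRT4. Its groups did not overlap, as in 9.77% of all genes in this direction, and its log2 fold change was -0.16. In edgeR the adjusted p was 0.701 with all samples and 0.0453 without AdSIRT4 replicate 1, where 6.71% of all genes were called. TSFM, MTIF3, LETM1 and MTIF2 had log2 fold changes of 0.38, 0.35, -0.19 and 0.13. In AdSIRT4, TSFM had 71.0, 43.9 and 41.0 CPM and MTIF3 17.6, 10.9 and 9.03 CPM. LETM1 had 35.3, 51.7 and 52.4 CPM there and MTIF2 49.1, 40.7 and 38.8 CPM. Replicate 1 thus lay away from the other AdSIRT4 samples in each. The 22 markers of mitochondrial content had a median of 0.10 with 0 called, beside 0.0113% of all genes. With all samples 18 of them were higher and 4 lower. Without AdSIRT4 replicate 1, 3 were higher and 19 lower, with a median of -0.053. SOD2, the matrix superoxide dismutase and a gene that cytokines induce, had 1480.5, 1540.0 and 1691 CPM in AdCtrl and 2283, 1971 and 2418 CPM in AdSIRT4. Its adjusted p was 0.498 in edgeR and 0.0103 in DESeq2, which called 1.16% of all genes. CS, citrate synthase, a common measure of mitochondrial mass, had 199.7, 204 and 212 CPM in AdCtrl and 160.5, 187 and 191 CPM in AdSIRT4, a log2 fold change of -0.19. TOMM40, VDAC2 and TIMM44 had log2 fold changes of 0.18, 0.28 and -0.14. In AdSIRT4, TOMM40 had 63.3, 54.2 and 53.1 CPM and VDAC2 236, 160 and 156 CPM, with replicate 1 the highest in both.

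The nuclear-encoded partners of the members in the respiratory complexes had a direction that changed with AdSIRT4 replicate 1 and with the fit. With all 6 samples, 71 of 79 nuclear subunit genes had higher and 8 had lower values in AdSIRT4, with a median log2 fold change of 0.15. Of the 79, 0 were called and 0 had an unadjusted p under 0.05, beside 0.0113% and 7.93% of all genes. Over all genes tested, 9459 were higher and 8261 lower. After removal of the gene length trend, 45 subunits were higher and 34 lower with a median of 0.0062, and with the replicate block added 40 were higher and 39 lower. In limma voom with sample quality weights, 1 was higher and 78 lower with a median of -0.17, and 2 were called lower, beside 8.16% of all genes called. Without AdSIRT4 replicate 1, 0 were higher and 79 lower, with a median of -0.20, and edgeR called 11 lower beside 6.71% of all genes: 1 in complex I (NDUFS8), 1 in complex II (SDHA), 1 in complex III (UQCRC2), 5 in complex IV (COX5B, COX6A1, COX6B1, COX7A2 and COX7B) and 3 in complex V (ATP5F1A, ATP5F1B and ATP5MJ), named after their values were seen. UQCRB, a subunit of complex III, had 143, 148 and 121 CPM in AdCtrl and 256, 137 and 128 CPM in AdSIRT4. NDUFS1, the largest subunit of complex I, had 172, 158 and 164 CPM in AdCtrl and 139.5, 157 and 153 CPM in AdSIRT4 and was the one nuclear subunit of 79 whose groups did not overlap, beside 19.4% of all genes. UQCRC2 and NDUFB3 had log2 fold changes of -0.15 and 0.34 with all samples. NDUFB3 had 93.8, 48.5 and 44.8 CPM in AdSIRT4, with replicate 1 alone at the high end. Without both libraries that stood apart, 78 of 79 nuclear subunits were lower with a median of -0.21, while 8 of 10 members were higher with a median of 0.25. The member median was -0.014 with all samples and -0.11 without AdSIRT4 replicate 1 alone. AdCtrl replicate 2 was left out for its high values in the members, so the opposite directions follow in part from that choice and were not tested.

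Among 10345 genes outside mtDNA with a mean of at least 10 CPM, the levels of WARS2-AS1, STARD7, DYRK1B, AKT1S1 and RTL8B were most like the summed level of the members over the 6 samples. Pearson's r of the log2 CPM was 0.992, 0.980, 0.978, 0.977 and 0.967, a description over 6 points in which AdCtrl replicate 2 was the highest for each gene. Their own range was small, 1.12-fold to 1.24-fold between the highest and the lowest sample, against 1.49-fold for the summed members. WARS2-AS1 had 16.2, 18.6 and 15.9 CPM in AdCtrl and 17.6, 16.8 and 15.8 CPM in AdSIRT4, and it is an antisense gene, whose reads cannot be told apart from those of its partner without strand.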

How the data were processed

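Poly(A)-selected RNA of 6 samples was sequenced. The authors deposited raw counts per gene, and a table without a named unit, read here as FPKM from its values and the gene lengths that both tables imply. The submitters' processing notes list fastp 0.21.0, HISAT2 2.1.0, StringTie 2.1.5, DESeq2 1.30.1 and hg38, without roles. Annotation and strand are not given in the sources used here.

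Counts were tested with edgeR 4.0.16 (R 4.3.3; filterByExpr with a minimum count of 10, TMM, robust quasi-likelihood test, Benjamini-Hochberg adjustment over 17720 genes, threshold 0.05). CPM are scaled by TMM. The text names the 10 members, the other mtDNA genes, SIRT4, 5 genes of each related list with the smallest unadjusted p, and the 5 genes most like the summed members. A result that this rule would name is not reported here. Members and lists were chosen with earlier results of these data known. Deviations from the group means correlated between same-numbered samples (r = 0.178, 0.159 and 0.176 over 17720 genes, all above 0.1), so replicate numbers were treated as pairs in a blocked fit. Over the 10 members the same correlations were -0.241, -0.319 and 0.318, so the pairing rests on all genes and was not seen in the members. DESeq2 1.42.0 and limma 3.58.1 on log2(FPKM + 1) were among the alternatives. The fitting code was tested on simulated data. Total counts of 41537353 to 85684748 put the limit of a count of 0 (3 counts) at 0.0350 to 0.0722 CPM. All samples were taken as HK2 from their titles, although the cell line tag of the labels differs between samples. Figures were drawn with matplotlib 3.10.9.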

Additional observations from a re-analysis of the deposited data

How the results depend on the processing

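Over 20 alternative fits the log2 fold changes of the 10 members kept their sign in 162 of 200 cases without a call, reversed in 37, and passed adjusted p under 0.05 in 1. With the replicate number as a block no call changed: 0 members were called, while ATP6 (0.11), ND2 (0.0023), ND4 (0.0012) and ND6 (0.065) turned positive. With voom weights ATP6 (0.032), ND2 (0.014) and ND4 (0.0084) turned positive and COX2 (-0.060) negative. Limma gave 0.068 for ATP6 on log2(FPKM + 1), blocked or not and with genes under a mean FPKM of 1 left out, and 0.068 with a pseudocount of 0.1. After removal of the gene length trend, COX2 was -0.033 and CYTB -0.058, and with the block added -0.031 and -0.037. The added fit without AdCtrl replicate 2 and AdSIRT4 replicate 1 called 1 member and turned ATP6 (0.37), ATP8 (0.68), ND2 (0.18), ND4 (0.25), ND4L (0.23), ND5 (0.24) and ND6 (0.77) positive and COX2 (-0.042) negative. It was added after the members' values were seen, so its call is a description. Leave-one-out fits ranged over -0.033 to 0.71 (ND1), -0.18 to 0.21 (ND2), -0.21 to 0.28 (ND4), -0.68 to 0.028 (ND5), -1.44 to 1.07 (ND6), -0.091 to 0.30 (CYTB), -0.22 to -0.13 (COX1), -0.13 to 0.30 (COX2), -0.059 to 0.45 (COX3), -0.27 to 0.52 (ATP6), -0.044 to 0.86 (ND3), -0.53 to -0.019 (ND4L) and -1.45 to 0.58 (ATP8).

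The related lists, with 0 calls in the fit of all samples, had calls in some alternatives. DESeq2 called 1 gene of RNA processing (NSUN2) and 1 content marker (SOD2), beside 1.16% of all genes. Voom called 2 genes of mtDNA copying, 2 of RNA processing, 2 nuclear subunits and 2 content markers, beside 8.16% of all genes. In the leave-one-out fits, calls ranged from 0 to 2 for mtDNA copying, 0 to 1 for mtDNA transcription, 0 to 1 for RNA processing, 0 to 1 for translation factors, 0 to 11 for nuclear subunits and 0 to 2 for content markers, the highest each time without AdSIRT4 replicate 1, where 6.71% of all genes were called. The added fit called 1 gene of mtDNA copying, 1 of RNA processing and 4 nuclear subunits, beside 3.06% of all genes. The groups hold 3 samples each and the widest member interval, that of ND6, spans -3.11 to 1.22, so moderate changes were not detectable for ND6. The cause of these shifts was not tested.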
